A study of Arabidopsis thaliana with 4 samples.

Results

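The most abundant seedling transcripts, as far as these arrays rank them, are 199 probe sets out of 22746 that are not array controls. A probe set is a group of short array features that reads 1 transcript, or several near-identical ones. The members were chosen by their signal: the 200 probe sets with the highest value of the lowest signal over the 4 arrays were taken, after 77 probe sets annotated to the plastid genome were set aside. Of the 200, AT4G16980 was then left out by its chromosome position. Certain gene families, by symbol, and a stretch of chromosome 4 were excluded, which could be applied only to probe sets with an annotated gene. Ranking by the lowest signal favours probe sets that are high on every array, so both the level and part of the evenness of the members come from the rule and are described, not tested. Just inside the threshold lay AT5G19510, with a lowest signal of 1788, and just outside it lay 265480_at, with 1768. Among the members, 51 carry 1 annotated gene, 7 carry several genes and are not named, and 141 are not listed in the annotation used. The unlisted share was 70.9% among the members and 38.4% over the whole array, so the named genes give a partial view. Some unlisted members may be read from plastid genes, or from genes that the exclusions by symbol or position would have left out.

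The study measured RNA from whole Arabidopsis thaliana seedlings, kept cold for 2 days and then grown for 14 days on sucrose agar at 24 °C under a 16 h light period. It compared a T-DNA line labelled as a gene knockout of CESTA (CES; 2 arrays), a line labelled as a CESTA enhancer trap and also tagged as a gene knockout (1 array), and Columbia-0 wild type (1 array), all of Col-0 background. The product of CES is a DNA-binding regulator of the bHLH family that acts in brassinosteroid responses. The labels do not say how many plants were pooled, nor whether the knockout arrays came from separate cultures.

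In a green seedling, a small number of genes supply much of the messenger RNA. Chloroplast proteins encoded in the nucleus, above all those of the light-harvesting antennae, the photosystems and carbon fixation, are made in the cytosol and imported. The cytosolic ribosome, built from about equal numbers of each of its proteins, is another large consumer of transcripts. Metallothioneins, small secreted proteins and enzymes of central metabolism are further classes known for abundant transcripts in leaves and roots.

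The whole-series facts that bear on these values are few. CES read 4124 on the array labelled enhancer trap, 0.533 in wild type, and 7.29 and 5.35 in the knockout arrays. Bacillus controls, 27 probe sets for RNA that plants do not make, reached at most 10.6, so CES was above this background only on the array labelled enhancer trap, which goes against its tag as a gene knockout. The median signal of all probe sets lay between 38.5 and 39.6 on the 4 arrays. The GAPDH 3'/5' ratio, a sign of RNA integrity, was 1.38 on the array labelled enhancer trap and 1.70 to 2.01 on the others. Of the markers of tissues, the annotation named 1 of 5 for green tissue and 2 of 5 for root. RCA of green tissue read 6077 to 7749, and the root genes PYK10 and EXPA7 read 3308 to 4112 and 44.7 to 113. By these genes, shoot and root were both sampled. Only 1 of 4 pollen markers was named by the annotation, AGL66, at 1.4 to 6.35, under the Bacillus control level. Of the 9 seed storage and 5 flower markers 0 were named, so those tissues were not checked.

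Members gave signals from 1796 to 11156 in wild type, with a median of 2905. On the array labelled enhancer trap they ran from 1788 to 9326, with a median of 2691. In the knockout arrays the medians were 2922 and 3035. With 0.875% of the probe sets, they held 21.2% of all signal in wild type, 19.7% on the array labelled enhancer trap, and 21.1% and 22.2% in the knockout arrays. The array labelled enhancer trap thus had the lowest share. In whole seedlings, fewer cells that make a transcript and less of it per cell cannot be told apart. Signals of different probe sets depend on how well their features bind, so the order of members is not an order of transcript number. Probe sets marked in their name (_s_at) as matching several transcripts made up 10.1% of the members and 4.11% of all probe sets. For these, and for the near-identical copies usual among ribosomal and antenna genes, a signal may combine copies.

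**Figure D1:**
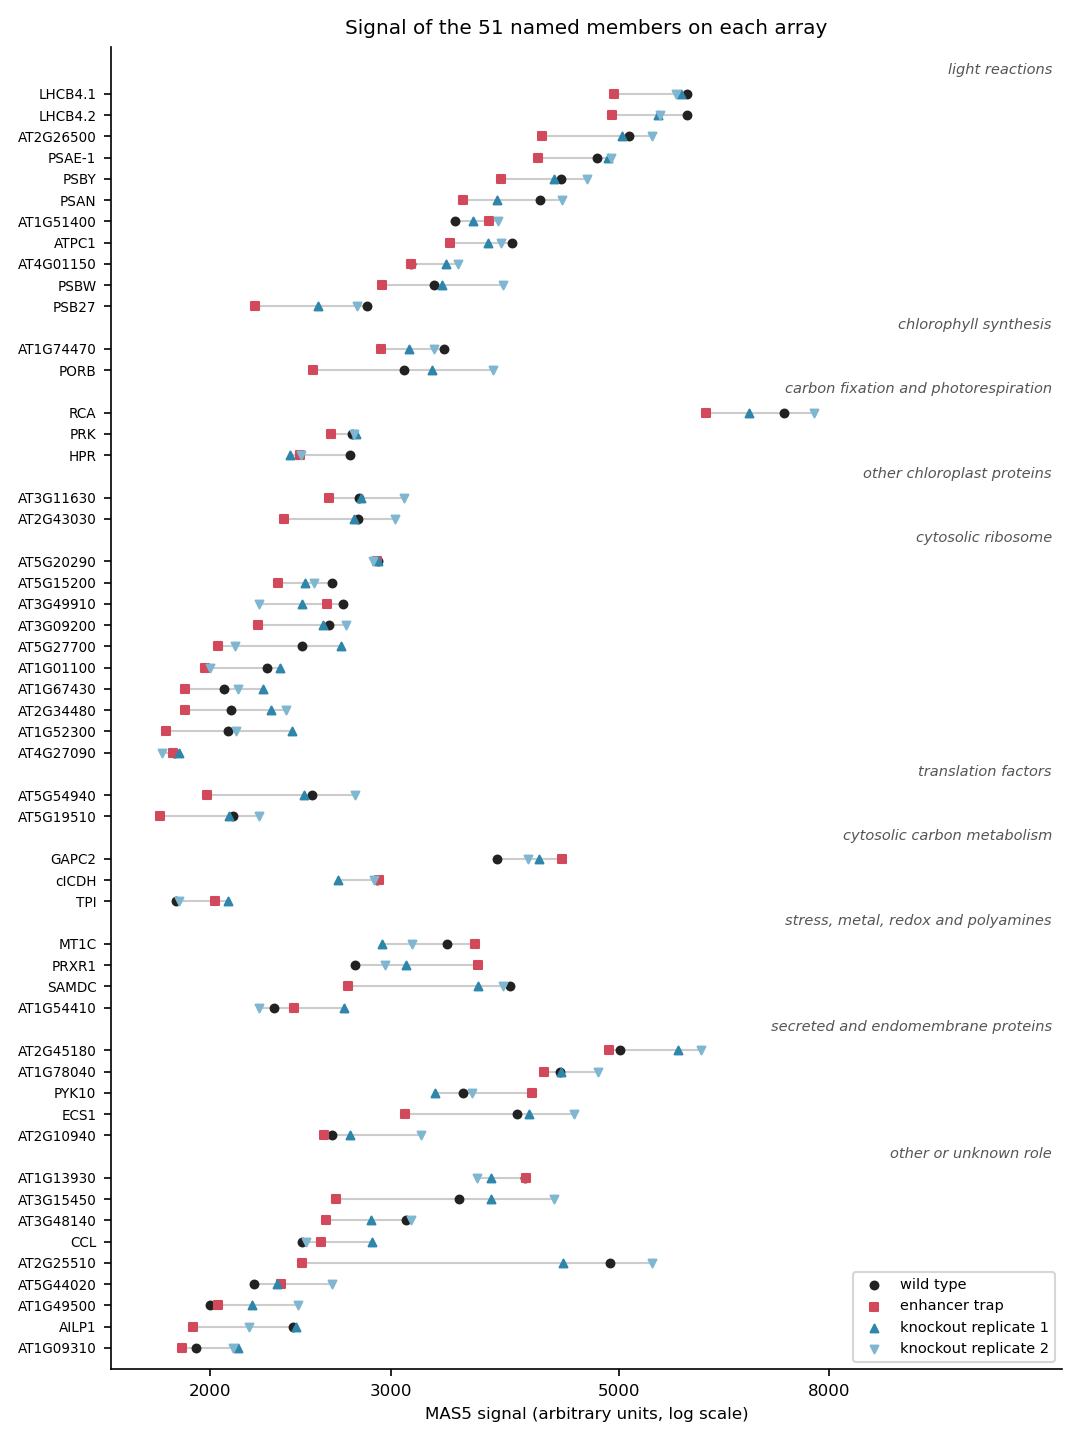
MAS5 signal (horizontal axis, arbitrary units, log scale) of the 51 named members, 1 row per gene and 1 point per array, grouped by role. The grey line joins the lowest and the highest array. Squares of the array labelled enhancer trap lie at the left end of 35 of the 51 rows, 16 of them in the chloroplast groups.

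The 51 named genes fall mainly into chloroplast work and translation. By role, 18 fall in the chloroplast groups, which count the peroxisomal enzyme HPR with carbon fixation. A further 12 encode ribosomal proteins or translation factors. The other 21 are spread over metabolism, stress, secretion and unknown roles. Roles given here are general knowledge of these genes and not a content of the files. The genes lie on all 5 nuclear chromosomes, with 18 on chromosome 1, 8 on chromosome 2, 10 on chromosome 3, 6 on chromosome 4 and 9 on chromosome 5. Their median gene length was 1528 bp, from 560 to 3827 bp, against a median of 2111 bp over 13217 named nuclear genes on the array (TAIR10.1 annotation). These lengths include introns.

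Light harvesting was represented by LHCB4.1 and LHCB4.2. Both encode CP29, a minor antenna protein that links the outer antenna to the core of photosystem II. LHCB4.1 read 5821 in wild type, 4947 on the array labelled enhancer trap, and 5745 and 5683 in the knockout arrays. LHCB4.2 read 5825, 4924, 5454 and 5483 in the same order. For both genes the array labelled enhancer trap was the lowest, and wild type and knockout lay close together. The third CP29 gene, LHCB4.3, was no member, at 84.5 to 109.

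Photosystem I was represented by PSAE-1 and PSAN, both for subunits on the edges of the complex where plastocyanin or ferredoxin docks. PSAE-1 read 4758 in wild type, 4171 on the array labelled enhancer trap, and 4881 and 4915 in the knockout arrays. PSAN read 4189, 3525, 3804 and 4400. Photosystem II was represented by PSBY and PSBW, which encode small membrane subunits, by PSB27, an assembly factor, and by AT1G51400, a low-mass protein of the complex. On the array labelled enhancer trap PSBY read 3836 and PSBW read 2937, the lowest of the 4 arrays for each, against 4319 to 4655 and 3303 to 3854 on the others. PSB27 read 2842 in wild type and 2209 on the array labelled enhancer trap, a log2 difference of -0.36 (SE 0.181). This was the widest such difference among the light-reaction genes and did not pass the test described below (limma adjusted p = 0.395). AT1G51400 read 3461, 3731, 3604 and 3813, and was the only light-reaction gene with wild type lowest.

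AT2G26500, for a small subunit of the cytochrome b6f complex that passes electrons between the photosystems, read 5111 in wild type and 4207 on the array labelled enhancer trap. In the knockout arrays it read 5030 and 5384. ATPC1, the gamma subunit of the chloroplast ATP synthase, read 3932, 3422, 3725 and 3839, while its relative ATPC2, no member, read 31.2 to 52.7. AT4G01150 encodes CURT1A, which bends thylakoid membranes at the margins of the stacks. It read 3135 in wild type and 3133 on the array labelled enhancer trap, and was a little higher in the knockout arrays, at 3393 and 3480.

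Rubisco activase, encoded by RCA, keeps the carbon-fixing enzyme free of inhibitory sugars and stood first among the named members by the rule. RCA read 7242 in wild type, 6077 on the array labelled enhancer trap, and 6696 and 7749 in the knockout arrays. The knockout arrays thus spanned the wild-type value. PRK, phosphoribulokinase, regenerates the acceptor of carbon dioxide and read 2745, 2620, 2775 and 2758, among the most even of the named members. HPR, the peroxisomal hydroxypyruvate reductase of photorespiration, read 2736 in wild type and lower on the other 3 arrays, at 2445, 2393 and 2448.

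Chlorophyll synthesis supplied AT1G74470, the geranylgeranyl reductase that makes the chlorophyll tail, and PORB, which reduces protochlorophyllide in the light. AT1G74470 read 3375, 2930, 3120 and 3301. PORB read 3090 in wild type, 2516 on the array labelled enhancer trap, and 3290 and 3766 in the knockout arrays. The knockout minus enhancer trap difference of PORB was 0.48 on the log2 scale (SE 0.161, limma adjusted p = 0.0671). Also plastid proteins are AT3G11630, a peroxiredoxin, at 2609 to 3088, and AT2G43030, a protein of the plastid ribosome, at 2358 to 3028.

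The 10 named genes of the cytosolic ribosome read between 1795 and 2912. AT5G20290 encodes ribosomal protein S8 and read 2909 in wild type, 2903 on the array labelled enhancer trap, and 2912 and 2878 in the knockout arrays. Its highest signal was 1.01-fold its lowest, the smallest range of the 13648 probe sets tested on the deposited scale. With quantile normalization its range was 1.13-fold and stood at rank 1508, and with median centring it was 1.03-fold at rank 24. AT4G27090, for protein L14, was also even, at 1841, 1837, 1866 and 1795, a range of 1.04-fold. AT1G52300, for protein L37, and AT5G27700, for protein S21, had the widest ranges of this group, 1.33-fold and 1.32-fold. AT5G27700 read 2678 and 2112 in the knockout arrays, so that range lay largely within a group. AT3G49910, for protein L26, read 2694 in wild type, 2599 on the array labelled enhancer trap, and 2454 and 2230 in the knockout arrays. It was 1 of 6 ribosomal genes lower in the knockout than in wild type, while 128 of the 199 members were higher.

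The remaining ribosomal genes are AT5G15200 (protein S9), AT3G09200 (stalk protein P0), AT1G01100 (stalk protein P1), AT1G67430 (L17) and AT2G34480 (L18a). Their ranges were 1.13-fold to 1.25-fold. On the array labelled enhancer trap all 5 were the lowest of the 4 arrays. The translation factors AT5G54940, of the SUI1 family that helps choose start codons, and AT5G19510, a subunit of the exchange factor of elongation, read 1983 and 1788 on that array. In the other arrays they read 2466 to 2763 and 2086 to 2229.

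In cytosolic carbon metabolism, GAPC2, a glycolytic dehydrogenase gene often taken as a reference in expression work, read 3800 in wild type, 4403 on the array labelled enhancer trap, and 4176 and 4074 in the knockout arrays. TPI, triose phosphate isomerase, read 1852, 2022, 2080 and 1863. The cytosolic isocitrate dehydrogenase gene cICDH read 2905, 2918, 2665 and 2889. In all 3 genes the array labelled enhancer trap was at or above wild type, unlike most members.

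MT1C, a metallothionein gene, and PRXR1, a class III peroxidase gene, had their highest signal on the array labelled enhancer trap. MT1C read 3400, 3623, 2936 and 3144, and PRXR1 read 2766, 3647, 3098 and 2959. PYK10, the beta-glucosidase of root endoplasmic reticulum bodies, was highest on the same array, at 4112 against 3308 to 3598. AT1G54410, a small dehydrin, read 2308, 2413, 2700 and 2232. SAMDC encodes the decarboxylase that feeds polyamine synthesis and read 3913 in wild type, 2720 on the array labelled enhancer trap, and 3643 and 3854 in the knockout arrays. Its difference from wild type on that array was -0.52 (SE 0.186, limma adjusted p = 0.119).

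Of the secreted proteins, AT2G45180 and AT2G10940 belong to the lipid-transfer and protease-inhibitor superfamily and read 4887 to 6010 and 2580 to 3208. AT1G78040, of the family of the olive pollen allergen, was steadier, at 4229 to 4766. ECS1 encodes a small cell-wall protein and read 3980, 3090, 4083 and 4516. The knockout minus enhancer trap difference of ECS1 was 0.47 (SE 0.163, limma adjusted p = 0.0800). Genes of other or unknown role were AT1G13930 (3638 to 4061), AT3G48140, of the B12D family (2593 to 3138), CCL (2458 to 2872), AT5G44020, an acid phosphatase relative (2204 to 2625), AT1G49500 (1997 to 2435), AT1G09310 (1876 to 2128) and AILP1 (1922 to 2426). AILP1 shares its protein family with AT3G15450, described among the calls.

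The spread of each member over the 4 arrays was taken as its highest over its lowest signal. The median was 1.22-fold over the members, 1.22-fold over the next 191 probe sets by the same rule, and 1.32-fold over all 13648 tested. A range of at least 1.5-fold was found in 14 members (7.04%), against 25.8% of all tested, and in 6.28% of the next 191. The rule disfavours probe sets that are low on any array, and the next probe sets were as even, so the share is not particular to the members. By this measure, on the deposited scale, AT5G20290, AT4G27090, PRK, cICDH and AT1G51400 were the most even named members, at 1.01-fold to 1.1-fold. With quantile normalization AT4G27090 and PRK stayed even, at 1.05-fold and 1.06-fold. AT5G20290, cICDH and AT1G51400 then ranged 1.13-fold, 1.16-fold and 1.19-fold, wider than AT3G11630 (1.06-fold) and AT1G74470 (1.07-fold). The least even were AT2G25510 (2.19-fold), AT3G15450 (1.63-fold), PORB (1.5-fold), ECS1 (1.46-fold) and SAMDC (1.44-fold). In each of these 5 the array labelled enhancer trap was the lowest. This list also depended on the scaling: with quantile normalization ECS1 ranged 1.24-fold and PRXR1 1.41-fold. The 7 members with several genes ranged from 1.03-fold to 1.22-fold, and the 141 unlisted from 1.04-fold to 2.00-fold.

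**Figure D2:**
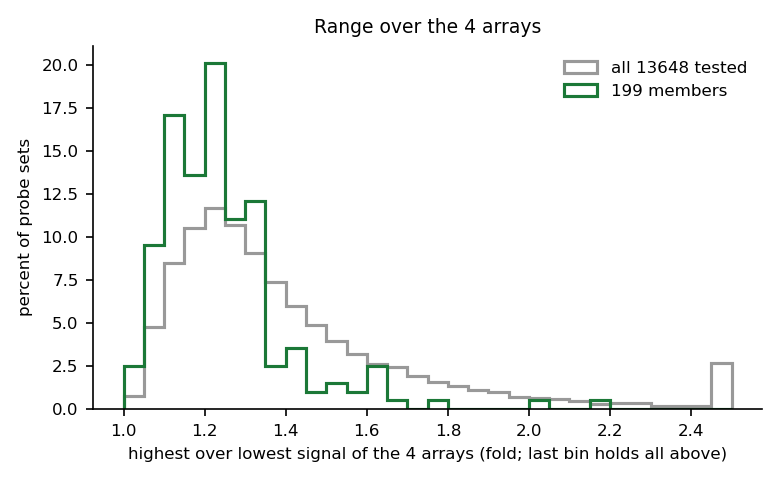
Percent of probe sets (vertical axis) by the highest over the lowest signal of the 4 arrays (horizontal axis, fold, bins of 0.05). The 199 members lie mostly under 1.5-fold, while 25.8% of all 13648 tested probe sets are at or above it.

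Between the knockout arrays, the only replicate pair, members differed by a median of 0.12 on the log2 scale in either direction. That median was 0.10 over the next 191 and 0.17 over all tested. Replicate 2 was the higher in 144 of 199 members, with a median difference of 0.093, against 85 of the next 191 and 6709 of all 13648 tested. It was also the array with the highest signal for 108 members, against 3289 of all 13648 tested. That count depended on the scaling, and with quantile normalization it was 41 members.

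Whether a difference between groups exceeded the spread between arrays was tested in 1 model over all 13648 probe sets with limma. Its only replicate pair is the knockout, and the lone arrays were assumed to vary as that pair does. Differences are on the scale of log2(signal + 1), and a call is an adjusted p under 0.05 over all tested. At the median standard error of the members, a difference of about 0.60 was needed for a call in enhancer trap minus wild type, 0.71 in knockout minus wild type and 0.50 in knockout minus enhancer trap. All 199 members passed the filter on low signals. Since separate cultures are not stated, the p-values may measure technical spread alone.

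The knockout against wild type asks whether the labelled loss of CES goes with other levels of the abundant transcripts. The members' median difference was 0.035. The median size of the difference was 0.087, against 0.090 over the next 191 and 0.14 over all tested. Of the members 0 passed the limma test, where 0.183% of all tested did. At an unadjusted p under 0.05 there was 1 member, the unlisted 262456_at, where 5.67% of all tested were. The 11 light-reaction genes had a median of 0.026 and the 10 ribosomal genes a median of -0.008, with members of each on both sides of 0. Among named genes the differences ran from -0.20, for AT3G49910, to 0.22, for AT2G45180. At the median standard error of the members, 0.160, a 95% interval from the fit reached 0.32 to either side of a difference. Since a call needed about 0.71, 0 calls says little about changes under that size.

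Wild type and the enhancer trap have 1 array each, so in their comparison a property of the line cannot be told apart from an unusual array on either side. Most members read lower on the array labelled enhancer trap, by a small amount. The median difference was -0.15 over the members, -0.054 over the next 191 and -0.011 over all tested, with 147 of 199 members below wild type. On the array labelled enhancer trap 128 members (64.3%) had the lowest signal of the 4 arrays, against 29.8% of all tested and 45.0% of the next 191. The difference depended on the scaling. With quantile normalization the members' median was -0.018 and the lowest-array count was 74, and with median centring they were -0.13 and 126. With quantile normalization the next 191 had 75, or 39.3%, against 37.2% of the members, so the members did not stand above them on that scale. In the rule's order, 42 of the first 50 members were lowest on this array, then 33 and 24 of the next 2 groups of 50, and 29 of the last 49. The medians were -0.21, -0.14, -0.040 and -0.13, with no steady order. With quantile normalization, which gives equal ranks equal values, the first 50 were at 0 and the last 49 at -0.086. This array also had the lowest GAPDH 3'/5' ratio, 1.38, and the highest signals of the root genes PYK10 and EXPA7, 4112 and 113. The part of either in the result was not tested.

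**Figure D3:**
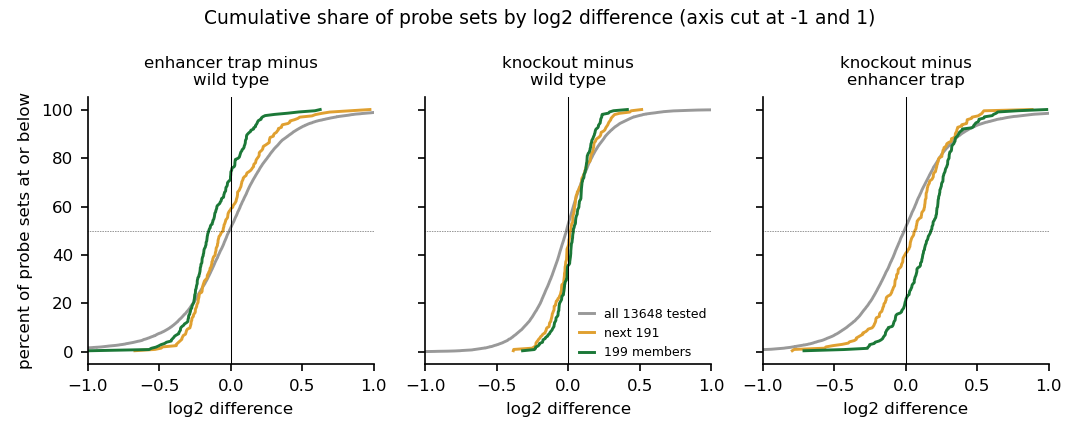
Cumulative percent of probe sets (vertical axis) at or below a log2 difference (horizontal axis) in the 3 comparisons, for the 199 members, the next 191 by the same rule and all 13648 tested. The members' curve is shifted to the left for the enhancer trap minus wild type (median -0.15) and to the right for the knockout minus the enhancer trap (median 0.18), and lies near 0 for the knockout minus wild type.

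By role, the lower readings were not uniform. Of the 18 genes in the chloroplast groups, HPR included, 17 read below wild type on the array labelled enhancer trap. Of these 18, 16 were lowest there of all 4 arrays. Medians were -0.20 for the 11 light-reaction genes, -0.25 for the 2 chlorophyll genes, -0.16 for the 10 ribosomal genes and -0.29 for the 2 translation factors, against -0.15 for all members. The 3 genes of cytosolic carbon metabolism had a median of 0.13. With quantile normalization these medians became -0.081, -0.14, -0.11, -0.27 and 0.20, and 14 of the 18 genes in the chloroplast groups read below wild type. The 3 genes of carbon fixation and photorespiration went from a median of -0.16 to 0. That 0 is the value of RCA, which quantile normalization fixed because its rank was the same on every array. HPR was then at -0.11 and PRK at 0.013. The 5 secreted and endomembrane proteins, PYK10 among them, turned from a median of -0.037 to 0.10. In the chloroplast groups, the number of genes lowest on the array labelled enhancer trap went from 16 to 8 of 18 with quantile normalization. None of these groups had a member past the limma test on the deposited scale. The photosynthesis list, matched by gene symbol, holds 13 named genes, of which 10 are members. It had 0 calls in either direction in all 3 comparisons. Of all tested, 4.29% passed in enhancer trap minus wild type, 0.183% in knockout minus wild type and 5.99% in knockout minus enhancer trap. At such shares 0 calls in a list this short, here or among the reference genes below, says little. Its other genes SBPASE, LHCB4.3 and ATPC2 differed from wild type by -0.083, -0.34 and 0.55 on the array labelled enhancer trap. The 6 widely used reference genes named on the array, GAPC2 among them, had 0 calls as well. On the deposited scale GAPC2 ranged 1.16-fold, and the 5 that are no members ranged 1.27-fold to 1.39-fold. With quantile normalization GAPC2 ranged 1.32-fold.

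**Figure D4:**
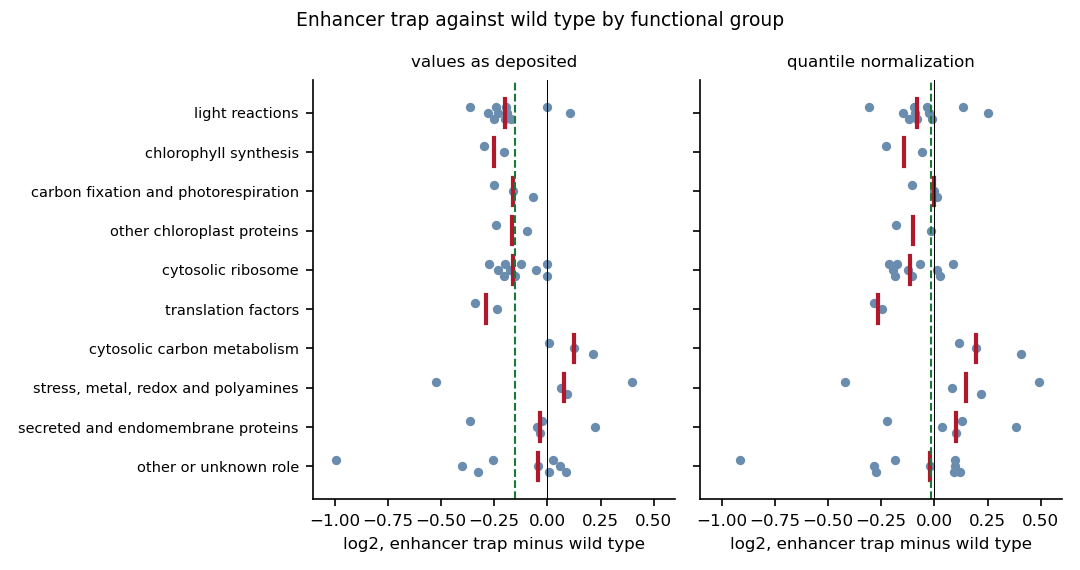
Log2 difference of the array labelled enhancer trap from wild type (horizontal axis) for the 51 named members by role, on the deposited values and after quantile normalization. Points are genes, red bars group medians, and the green dashed line is the median of all 199 members, which moves from -0.15 to -0.018.

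Past the test were 2 members (1.01%) in enhancer trap minus wild type, where 4.29% of all tested passed. The rule disfavours probe sets that are low on either array, so a low share is partly built in. The 200 highest by mean signal gave 5, or 2.51%. In the lower direction there was 1 member where 2.26% of all tested passed, and in the higher direction 1 where 2.04% passed. AT2G25510, a gene with no role known with certainty, fell: its signal was 4903 in wild type and 2458 on the array labelled enhancer trap, against 4409 and 5381 in the knockout arrays. The difference was -1.0 (SE 0.193, limma adjusted p = 0.000469), and the knockout arrays lay around wild type. The unlisted probe set 260623_at rose, from 2771 to 4273, with 2426 and 2804 in the knockout arrays. Its difference was 0.62 (SE 0.186, limma adjusted p = 0.0414, and 0.0999 with median centring). Without the intensity trend in the variance model, or without the filter on low signals, limma called 0 members, with 4 at an unadjusted p under 0.05 in either case, and 1.5% and 0.673% of all tested. With quantile normalization 8 members passed, or 4.02%, near the 4.75% of all tested, among them PRXR1, at 0.49 (limma adjusted p = 0.0166).

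Setting the knockout arrays against the array labelled enhancer trap leaves wild type out. The members' median difference was 0.18, against 0.066 for the next 191 and -0.011 over all tested, and 157 of 199 members were higher in the knockout. This comparison shares the array labelled enhancer trap with the previous comparison. With quantile normalization the median was 0.021. Past the test were 10 members (5.03%), close to the 5.99% of all tested, 9 of them higher in the knockout where 3.25% of all tested were, and 1 lower where 2.74% were. Of the 10, 2 are named. AT2G25510 was higher in the knockout by 0.99 (SE 0.167, limma adjusted p = 4.13e-05).

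AT3G15450, of the family with YGL and LRDR motifs known from aluminium-induced proteins, was the other named call. It read 3755 and 4322 in the knockout, 2648 on the array labelled enhancer trap and 3494 in wild type. The difference was 0.60 (SE 0.163, limma adjusted p = 0.0142, and 0.0505 with median centring). Its relative AILP1 differed by 0.26 (limma adjusted p = 0.465). Among the unlisted calls, 267083_at read 2665 and 3612 in the knockout against 1802, a difference of 0.78 (SE 0.167, limma adjusted p = 0.00138). The probe set 260623_at was lower in the knockout, at -0.71 (SE 0.161, limma adjusted p = 0.00265). In the 9 higher ones wild type was also above the array labelled enhancer trap, as it was for 147 of all 199 members.

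The calls in this comparison depended on the settings. Without the trend or without the filter limma called 0 members, with 17 and 14 at an unadjusted p under 0.05, and 2.45% and 1.02% of all tested. With median centring 5 passed, or 2.51%, against 3.74% of all tested. With quantile normalization 21 passed, or 10.6%, against 6.36% of all tested, and they held all 10. Among the 21 were PORB, at 0.38 (limma adjusted p = 0.0285), and SAMDC, at 0.35 (limma adjusted p = 0.0473), higher in the knockout. Also among them were PYK10 at -0.41, MT1C at -0.37 and PRXR1 at -0.37, lower in the knockout (limma adjusted p of 0.0145 to 0.0376). When members were instead the 200 highest by the wild-type array alone, which this comparison does not use, 13 of 198 passed, or 6.57%.

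**Figure D5:**
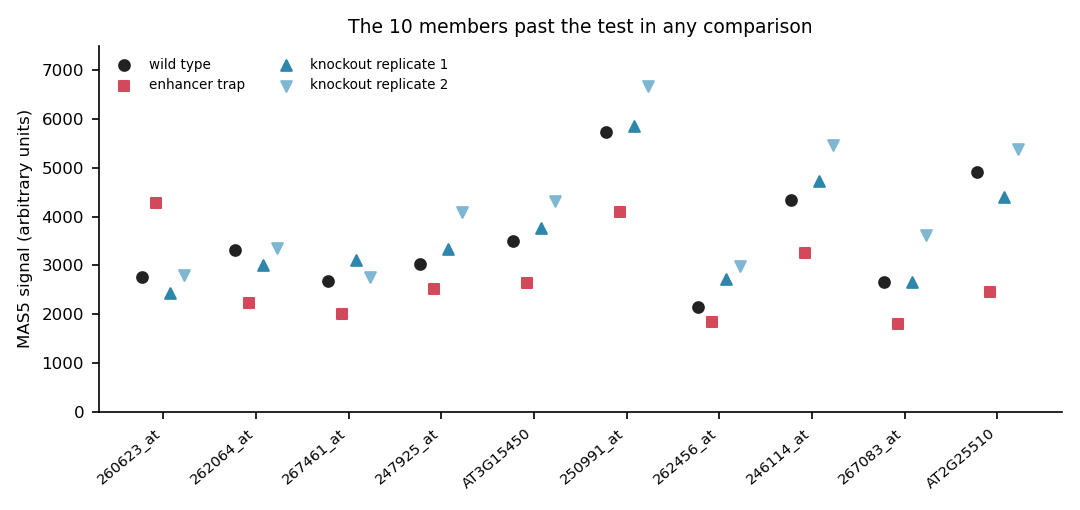
MAS5 signal (vertical axis, arbitrary units, from 0) on each array of the 10 members past the test in any comparison, ordered by the knockout minus enhancer trap difference. The square of the array labelled enhancer trap is the highest point for 260623_at and the lowest for the other 9.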

How the data were processed

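Biotin-labelled RNA of 4 seedling samples was measured, per the labels' protocols, on Affymetrix ATH1 arrays of 1 colour. The authors deposited 1 linear signal intensity for each probe set. Per the submitters' processing notes, MAS5 and GCOS were the tools used, in versions not given in the sources used here. Each column's mean was 100.0 once 2% of values had been trimmed from either end, so the authors' intensities had been scaled. The number of arrays limits the precision.

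The 64 control probe sets were left out. Signals were taken as log2(signal + 1), and probe sets whose mean reached the 40th percentile (4.58) stayed in, leaving 13648. A model with 3 group means was fitted across all probe sets in R 4.3.3 with limma 3.58.1 (lmFit, eBayes with an intensity trend), with two-sided p-values adjusted by the Benjamini-Hochberg method and called under 0.05. The fit has 1 residual and 41.8 prior degrees of freedom. The fit was tested on simulated data. Alternatives covered the pseudocount, scaling, filter, trend, the choice of members and each knockout array. Figures used matplotlib 3.10.9.

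Names come from the platform annotation, updated through the TAIR10.1 gene table, which all 51 named members matched. Members and lists were chosen with earlier results of these data known, and the grouping by role was made after the values were seen. All 51 are named, in place of the planned rule for a subset. Of the planned lists, photosynthesis and reference genes are used, matched by symbol; TKL was dropped because that symbol is TICKLE here. Promoter motifs were planned and not analysed here, because no sequence table was used.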

Additional observations from a re-analysis of the deposited data

How the results depend on the processing

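No paired analysis was possible because the groups share only replicate number 1. Leaving out a knockout array leaves no residual degree of freedom, so those settings give values with no test. Members past the test in enhancer trap minus wild type, 2 as reported, were 8 with quantile normalization, 1 with median centring, 0 without the filter, 0 without the trend, 5 for the 200 highest by mean signal, 0 for the 100 highest and 8 for the 400 highest. In knockout minus enhancer trap, 10 as reported, they were 21, 5, 0, 0, 14, 3 and 20 under the same settings. Of all tested, 4.29% passed in enhancer trap minus wild type as reported. That share was 4.75% with quantile normalization, 2.32% with median centring, 0.673% without the filter and 1.5% without the trend. For knockout minus enhancer trap it was 5.99% as reported, and 6.36%, 3.74%, 1.02% and 2.45% under those settings in the same order. With the 100 and 400 highest, fewer or more probe sets are counted, and the 400 highest (390 after exclusions) gave shares of 2.05% and 5.13%, against 1.01% and 5.03% as reported. The cause was not tested. In knockout minus wild type, 0 members passed under every setting run with limma.

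The median size of the members' difference over the settings run lay between 0.127 and 0.199 for enhancer trap minus wild type, 0.0734 and 0.113 for knockout minus wild type, and 0.127 and 0.237 for knockout minus enhancer trap. The lowest of each was with quantile normalization, which also moved the signed median of enhancer trap minus wild type from -0.153 to -0.018. Without either knockout replicate it lay between 0.0869 and 0.113 for knockout minus wild type and between 0.159 and 0.237 for knockout minus enhancer trap. The signed median of knockout minus wild type was 0.085 without replicate 1 and 0.011 without replicate 2. The median range over the arrays was 1.16-fold with quantile normalization. Quantile normalization gives each rank the same value on every array, so for the brightest probe sets it shows only changes of rank. Of the named genes past the test, none changed sign in the settings run.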
